A study of Homo sapiens with 4 samples.

Results

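FRS2 and 9 genes of the signalling machinery around it were followed in K562 cells given SF1-8 or its solvent DMSO. The 10 genes are FRS2 and its relative FRS3, the receptor FGFR1, the adaptors GRB2 and SHC1, the exchange factors SOS1 and SOS2, the docking proteins GAB1 and GAB2, and the phosphatase PTPN11. FRS2 was taken because its level was higher with SF1-8 in these same libraries, and the other 9 were taken for their function. Of the 64873 entries of the expression table, 62778 name a gene, with 50229 different symbols, and 13 of them name one of the 10 genes. For each gene the entry with the highest mean count was used, so 10 entries carry the values below and 3 smaller entries are described separately. All 10 passed the filter on low counts.

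K562 is an established human erythroleukemia cell line. In all 4 libraries the cells overexpressed the S34F mutant of the splicing factor U2AF1, so the controls carry it too. The groups were 2 DMSO libraries and 2 libraries of cells exposed to SF1-8, a small molecule directed at the UHM domain of U2AF1, at 30 uM for 48 h. Total RNA was sequenced after removal of ribosomal RNA, and the sources used here do not say whether the libraries of a group came from separate cultures, so p-values measure only the spread between these libraries, which may be technical. How the U2AF1 transgene is driven, and whether the line is a single clone, is not given in the sources used here.

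Fibroblast growth factor receptors bind phospholipase C gamma through their own tails but reach RAS mainly through a docking protein. Ligand binding makes them phosphorylate FRS2, which is anchored in the membrane and then recruits the adaptor GRB2 with the RAS exchange factor SOS and the phosphatase SHP2, the product of PTPN11, so that RAS and the ERK kinases are switched on. GRB2 can also bring in GAB docking proteins, which couple to PI3 kinase, and the ubiquitin ligase CBL, which marks active receptors and FRS2 itself for degradation. In K562 cells the BCR-ABL fusion kinase uses several of these adaptors, among them GRB2, GAB2, SHC1 and SHP2, without need of a growth factor.

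Total counts ran from 45522905 in DMSO 1 to 67554610 in SF1-8 1. Of 12 markers of the erythroid and megakaryocytic lineage of K562 cells, 11 lay on entries above an FPKM of 1 in every library, where HBG1, HBG2 and HBE1 share a single entry. With that entry counted once, the summed FPKM of the 12 was 311 and 312 with DMSO against 284 and 304 with SF1-8. FPKM is a count divided by transcript length and by sequencing depth. The fibroblast and smooth muscle markers were low, and in sum lower in both SF1-8 libraries. Of these markers 9 were tested, and none was under an adjusted p of 0.05 (edgeR quasi-likelihood test, Benjamini-Hochberg adjusted p = 0.970 for each). Their summed FPKM over 10 genes was 13.6 and 7.18 with DMSO against 3.84 and 1.04 with SF1-8, and none was at 0 in every library. By FPKM, 8 of the 10 were lower in both SF1-8 libraries than in both DMSO libraries and 1 was higher. Of all tested genes, 20.0% were lower in this way and 14.2% higher. Of the 12 K562 markers, 6 were lower and 0 higher, with HBG1, HBG2 and HBE1 each counted. The part of fibroblast and smooth muscle transcripts in the results below was not tested. Of the markers of other classes, MPO and ELANE (granulocytes), VWF and CDH5 (endothelium) and KRT5 (epithelium) were listed at 0 in all 4 libraries, but others of the same lists were present. EPCAM, an epithelial adhesion gene, had an FPKM between 14.2 and 16.8, LYZ, the lysozyme gene of myeloid cells, between 4.08 and 5.80, and the endothelial markers PECAM1 and CLDN5 between 0.959 and 1.39, with overlap between the groups in each case. The lymphocyte list had a summed FPKM of 11.8 and 10.0 with DMSO against 9.49 and 9.44 with SF1-8, mainly PTPRC, a gene of white blood cells in general, and CD3D. In bulk RNA, fewer cells of a type and less RNA per cell cannot be told apart.

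FRS2 and FRS3 are paralogs with the same domain plan, and the bases before their start sites are printed first because FRS2 stood apart between the groups and FRS3 overlapped between them. Both come from the RefSeq promoter table of GRCh38.p14, are written on the strand of the gene, and end where the exon at that start begins in GENCODE 29. The FRS2 stretch is chr12:69470138-69470348 on the plus strand and the FRS3 stretch is chr6:41779901-41780150 on the minus strand. The FRS2 stretch precedes the outermost annotated start of its gene, while the FRS3 stretch precedes an internal start, since the annotated gene extends upstream to 41786542. Capitals mark GC boxes, the letters GGGCGG read on either strand, where overlapping matches run together.
FRS2 promoter: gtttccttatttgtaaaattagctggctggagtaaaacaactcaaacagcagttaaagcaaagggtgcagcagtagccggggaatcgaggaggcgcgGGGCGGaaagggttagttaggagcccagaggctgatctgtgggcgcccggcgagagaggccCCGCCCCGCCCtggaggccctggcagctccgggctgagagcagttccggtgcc
FRS3 promoter: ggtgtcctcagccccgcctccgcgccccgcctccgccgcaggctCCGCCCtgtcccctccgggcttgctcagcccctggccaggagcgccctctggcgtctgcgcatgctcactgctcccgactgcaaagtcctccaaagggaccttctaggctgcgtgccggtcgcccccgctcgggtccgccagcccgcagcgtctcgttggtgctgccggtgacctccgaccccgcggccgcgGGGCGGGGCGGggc

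Each printed stretch holds 3 GC boxes. Over the full window of 250 bases before to 50 after the start, FRS2 had 3 and FRS3 had 6. The GC content of that window was 61% for FRS2 and 77% for FRS3, against a median of 58.7% over 35116 promoters, and the GC box was present in 45% of them. An ETS site, CCGGAAGT on either strand, occurred once in the FRS2 window, past the printed stretch, and not in the FRS3 window, and 4.14% of all promoters hold it. The cyclic AMP response element TGACGTCA, found in 1.85% of promoters, was in neither window, nor was the AP-1 site TGANTCA, found in 7.71%. For 7 of the 10 genes a window was read, 10 windows among them, and 7 of these 10 held a GC box.

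The coding sequence of FRS2 is cut up unevenly, which bears on what a gene-level count can show. GENCODE 29 gives FRS2 11 transcripts, all protein coding, over 109.4 kb of chromosome 12, and 3 of them carry a complete coding sequence, each for 508 amino acids. In the complete model ENST00000397997 the last exon, from 69574005 to 69579789, holds 948 of the 1524 coding bases and 88.3% of the transcript's length, mainly as 3′ UTR. Another model, ENST00000551325, is annotated with an open end 25 bases before the splice junction to the last exon, so its model does not reach that exon. The coding bases across that junction place the difference. The complete model is read from chr12:69572227-69572281 and continues at chr12:69574005-69574029 on the plus strand of GRCh38, with the bases of the last exon in capitals, and the short model stops at 69572256.
ENST00000397997: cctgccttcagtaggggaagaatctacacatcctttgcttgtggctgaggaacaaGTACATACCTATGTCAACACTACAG
ENST00000551325: cctgccttcagtaggggaagaatctacaca

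FRS2 was the gene of the 10 with the widest separation between the groups. Its entry spans chr12:69470349-69579789 on the plus strand, exactly the annotated gene. The FPKM was 0.870 and 0.770 in the DMSO libraries, and 1.90 and 2.17 in the SF1-8 libraries. Both SF1-8 libraries therefore stood above both DMSO libraries, and the gap between the groups was wider than the difference between the libraries of either group. The mean level was 0.820 ± 0.0710 (SD, n = 2) in controls, against 2.04 ± 0.190 (SD, n = 2) after SF1-8. The estimated counts behind these levels were 367 and 457 with DMSO against 1156 and 1272 with SF1-8. On counts scaled by TMM, the trimmed mean method of edgeR, the log2 fold change was 1.33 (standard error 0.144), a 2.51-fold higher level. No p-value is given for it, because this contrast is what brought FRS2 into the set. Leaving out each library in turn gave log2 fold changes between 1.24 and 1.42, which describes the chosen contrast and is no separate support for it.

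**Figure D1:**
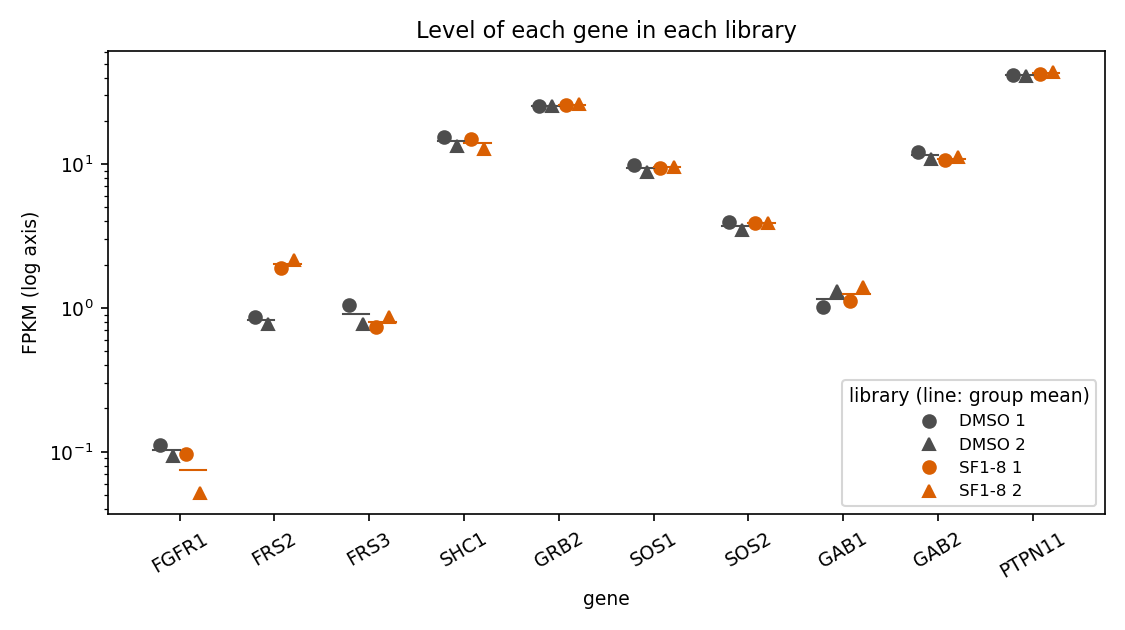
FPKM of the 10 genes (y axis, log scale) in each of the 4 libraries, with genes along the x axis in the order receptor, docking proteins, adaptors, exchange factors, GAB proteins and phosphatase. Grey points are DMSO and orange points SF1-8, circles are replicate 1 and triangles replicate 2, and short lines are group means. FRS2 is the gene whose orange points, at 1.90 and 2.17, stand clear of its grey points, at 0.870 and 0.770.

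Beside the main entry, 2 short entries inside FRS2 also carry its name. They lie at chr12:69483137-69483368 and chr12:69547236-69547595, 232 and 360 bases long, with no strand assigned, and neither overlaps an annotated exon of FRS2. The first begins 12.8 kb and the second 76.9 kb after the gene's start, both upstream of the internal start site of ENST00000397997 at 87.4 kb. The first held counts of 13 and 4 with DMSO against 25 and 29 with SF1-8. The second held 7 and 12 with DMSO against 20 and 40 with SF1-8. In each, both SF1-8 libraries were above both DMSO libraries, at very few counts. Of all tested genes, 14.2% by FPKM and 17.3% by TMM-scaled counts stood in this order. The short entries lie in the gene chosen for its rise, so their order is no separate support for it. Taken as a sum they came to 5.45% and 3.50% of the main entry's count with DMSO and to 3.89% and 5.42% with SF1-8, so this share of intronic to main counts overlapped between the groups.

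**Figure D2:**
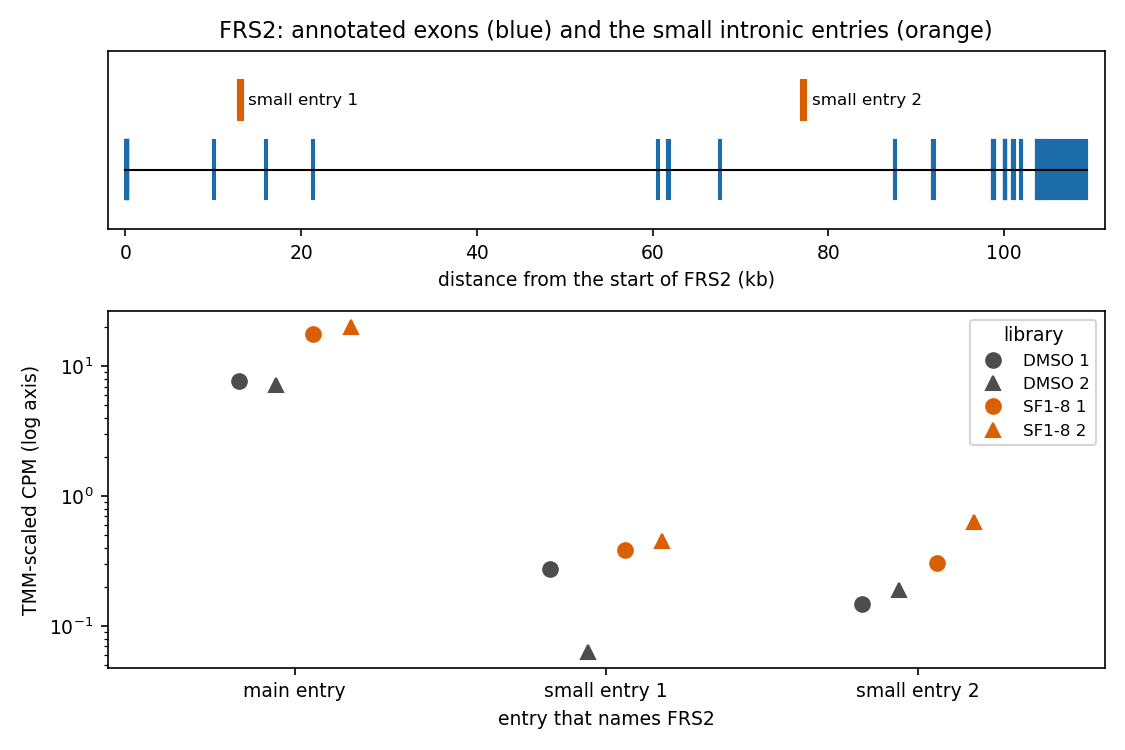
Upper panel, the annotated exons of FRS2 (blue) and the 2 short intronic entries (orange) by distance from the gene's start in kb, with small features drawn wider than their length to be visible. Lower panel, the TMM-scaled CPM (y axis, log scale) of the main entry and the short entries in each library, with DMSO in grey and SF1-8 in orange. In all 3 entries, which lie in the gene chosen for this difference, the SF1-8 points lie above the DMSO points. The main entry lies at 7.71 and 7.25 with DMSO and at 17.7 and 20.0 with SF1-8.

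The genes on either side of FRS2 did not show the same separation. The nearest entry upstream, the noncoding RNA LINC02373 at a distance of 9625 bases, had a count of 4 in DMSO 2 and was listed at 0 in the other libraries, and the nearest downstream, MIR3913-1, was listed at 0 in all. The nearest tested neighbours were YEATS4, which encodes a reader of acetylated histones and lies 72568 bases upstream, and CCT2, a subunit of the CCT chaperonin 5637 bases downstream. The FPKM of YEATS4 was 9.09 and 5.27 with DMSO against 6.86 and 9.15 with SF1-8, and that of CCT2 was 63.1 and 61.5 with DMSO against 60.7 and 67.0 with SF1-8. The groups overlapped for both, with log2 fold changes of 0.19 (standard error 0.276) for YEATS4 and 0.06 (standard error 0.0735) for CCT2.

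FRS3, the other member of the docking family, was not separated from its control level. Its entry lies at chr6:41770176-41786542 on the minus strand. The FPKM was 1.04 and 0.773 with DMSO against 0.736 and 0.866 with SF1-8, so the groups overlapped. The log2 fold change of -0.15 had a standard error of 0.244 and a 95% interval from -0.77 to 0.47 (edgeR quasi-likelihood test, Benjamini-Hochberg adjusted p = 0.971 over all 26167 tested genes). An increase of 2-fold lies outside that interval. FRS3's entry overlaps one on the opposite strand that holds TOMM6 and PRICKLE4 with counts from 7880 to 11789, against 173 to 201 for FRS3, and whether the counting used strand is not given in the sources used here, so FRS3's value is uncertain. FRS2 thus made up 45.5% and 49.9% of the summed FPKM of FRS2 and FRS3 with DMSO, and 72.1% and 71.5% with SF1-8.

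Of the 9 genes other than FRS2, 0 were past an adjusted p of 0.05 (edgeR quasi-likelihood test, Benjamini-Hochberg), and 0 were under 0.05 without adjustment, the smallest unadjusted p being 0.285. Among all 26167 tested genes, 11 were past the adjusted threshold, which is 0.0420%, and 4.33% were under 0.05 without adjustment, so a count of 0 among 9 is not a result about these genes. By DESeq2 also 0 of the 9 passed. By sign, 5 were higher and 4 lower with SF1-8, their median log2 fold change was 0.06 against -0.01 over all tested genes, and 6 of the 9 lay within their own standard error of 0. The 95% intervals bound only the difference between these libraries, whose spread may be technical. They left out a 2-fold increase for 9 of 9 entries and a 2-fold decrease for 8 of 9, FGFR1 being the exception. The entry used for SHC1 also holds PYGO2, and the FRS3 value is uncertain, so for these genes the bound is that of the entry.

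**Figure D3:**
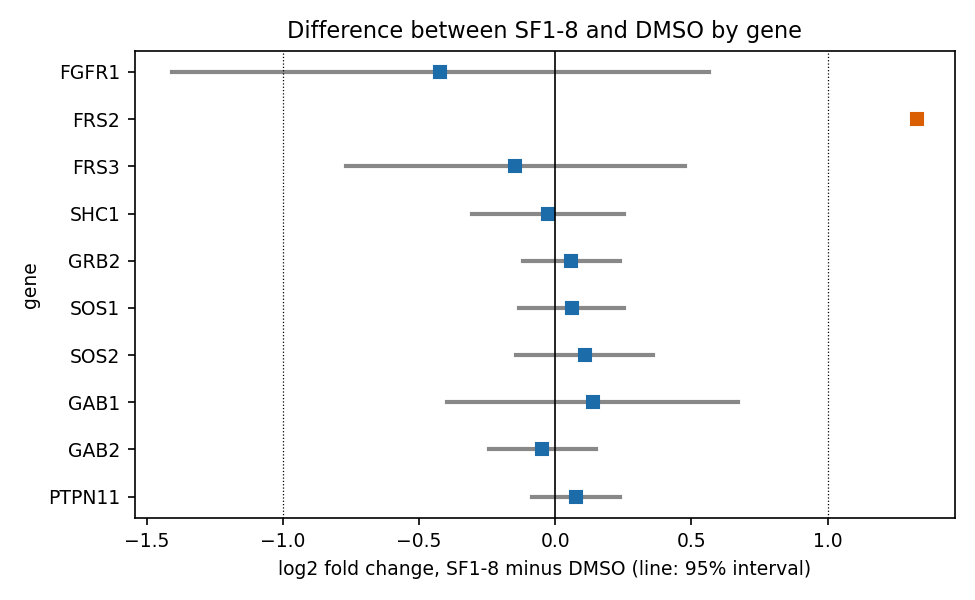
Log2 fold change of SF1-8 minus DMSO (x axis) for each of the 10 genes (y axis) from TMM-scaled counts, as squares with 95% intervals as grey lines and dotted lines at a 2-fold change. FRS2, in orange at 1.33, has no interval because it was selected on this difference, and the intervals of the other 9 genes all cross 0.

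FGFR1, the receptor tyrosine kinase at the head of the path, was barely detected. Its entry lies on chromosome 8 from 38400215 to 38468834. The FPKM was 0.112 and 0.0940 with DMSO against 0.0968 and 0.0515 with SF1-8, from counts between 63 and 122. The SF1-8 libraries overlapped the DMSO libraries, and SF1-8 2 was the lowest. The log2 fold change was -0.42 with the widest interval of the 9, -1.41 to 0.56 (edgeR quasi-likelihood test, Benjamini-Hochberg adjusted p = 0.970). Leaving out SF1-8 2 gave -0.04, and leaving out SF1-8 1 gave -0.95. FGFR1 is also a gene of fibroblasts. The fibroblast and smooth muscle markers in sum were lowest in SF1-8 2 as well, and the part of such transcripts was not tested.

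GRB2, whose SH2 domain binds phosphorylated FRS2 and whose SH3 domains hold SOS and GAB proteins, was second in level among the 10 genes. From its entry at chr17:75318076-75405709 on the minus strand, its FPKM was 25.5 and 25.2 with DMSO against 25.6 and 26.3 with SF1-8. Both SF1-8 libraries were above both DMSO libraries, by a small margin. The log2 fold change was 0.06, with a 95% interval from -0.12 to 0.24. On the FPKM scale 14.2% of all tested genes had both SF1-8 libraries above both DMSO libraries, and among the 9 genes it was 2, GRB2 and PTPN11. On TMM-scaled counts the background was 17.3% and the count was 4, with SOS1 and SOS2 added. In the opposite order, both SF1-8 libraries below both DMSO libraries, stood 20.0% of all tested genes by FPKM and 18.1% by TMM-scaled counts, and 0 of the 9.

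SOS1 and SOS2 encode the exchange factors that load RAS with GTP. SOS1, at chr2:38981549-39120463 on the minus strand, had an FPKM of 9.89 and 8.79 with DMSO against 9.47 and 9.62 with SF1-8. SOS2, at chr14:50117130-50231578 on the minus strand, had 3.94 and 3.48 with DMSO against 3.93 and 3.91 with SF1-8. For both genes the SF1-8 libraries fell inside the range of the DMSO libraries by FPKM, but above both on TMM-scaled counts. The log2 fold changes were 0.06 (standard error 0.0756) for SOS1 and 0.11 (standard error 0.0988) for SOS2, with 95% intervals that end at 0.25 and 0.36.

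GAB1 and GAB2 encode docking proteins that bind SHP2 and the regulatory subunit of PI3 kinase. GAB1, at chr4:143336762-143474568 on the plus strand, had an FPKM of 1.01 and 1.31 with DMSO against 1.11 and 1.40 with SF1-8. GAB2, at chr11:78215293-78417822 on the minus strand, was far higher at 12.1 and 10.9 with DMSO against 10.7 and 11.1 with SF1-8. The groups overlapped for both. The log2 fold change was 0.14 (standard error 0.210) for GAB1 and -0.05 (standard error 0.0772) for GAB2. GAB1's sign rested on single libraries, at -0.07 without DMSO 1 and -0.03 without SF1-8 2.

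PTPN11, whose product SHP2 is a phosphatase that RAS activation by FRS2 depends on, was the highest of the 10. Its entry is chr12:112418351-112486923 on the plus strand. The FPKM was 41.9 and 41.2 with DMSO against 42.1 and 43.8 with SF1-8, where SF1-8 1 stood just above DMSO 1. The difference was 0.08 on the log2 scale, with the narrowest 95% interval of the 9, -0.09 to 0.24. SHC1, an adaptor that gives GRB2 a route to receptors that does not need FRS2, shares its entry, chr1:154957026-154974376 on the minus strand, with PYGO2, so its level is that of both genes. That entry had an FPKM of 15.5 and 13.4 with DMSO against 15.1 and 12.8 with SF1-8. The DMSO and SF1-8 libraries overlapped, with a log2 fold change of -0.03 (standard error 0.110).

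By FPKM the order of the 10 genes with DMSO was PTPN11, GRB2, SHC1, GAB2, SOS1, SOS2, GAB1, FRS3, FRS2 and FGFR1. Neighbours in this order did not overlap between libraries except GAB1 with FRS3 and FRS3 with FRS2. With SF1-8 FRS2 stood at rank 7 in place of 9, between SOS2 and GAB1, and no neighbours overlapped. Set against GRB2 per unit length, FRS2 was at 3.41% and 3.05% of the GRB2 FPKM with DMSO and at 7.43% and 8.27% with SF1-8. FRS2 RNA therefore remained well below that of the adaptor in every library.

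Several of these genes share their locus with other entries whose reads could be split between them. FGFR1's entry overlaps that of LETM2 on the opposite strand, at an FPKM between 0.167 and 0.345, and SOS1, GAB1, GAB2, GRB2 and SHC1 overlap noncoding or pseudogene entries. PTPN11 and SOS2 overlap none. The smaller entry that names GRB2 lies on the opposite strand inside it, with counts of 107 and 139 under DMSO and 206 and 128 under SF1-8, which overlapped. GENCODE 29 lists 2 numbered pseudogenes of SHC1, whose highest count in any library was 7.

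The wider pathway was read from 7 lists of genes chosen by function, 137 genes in all, of which 102 passed the filter on low counts. By the edgeR quasi-likelihood test, Benjamini-Hochberg adjusted, 0 were higher and 1 was lower at an adjusted p under 0.05, against 0.0420% of all tested genes. At an unadjusted p under 0.05, 2 of the 102 were higher and 6 were lower, where the background over both directions was 4.33%.

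**Figure D4:**
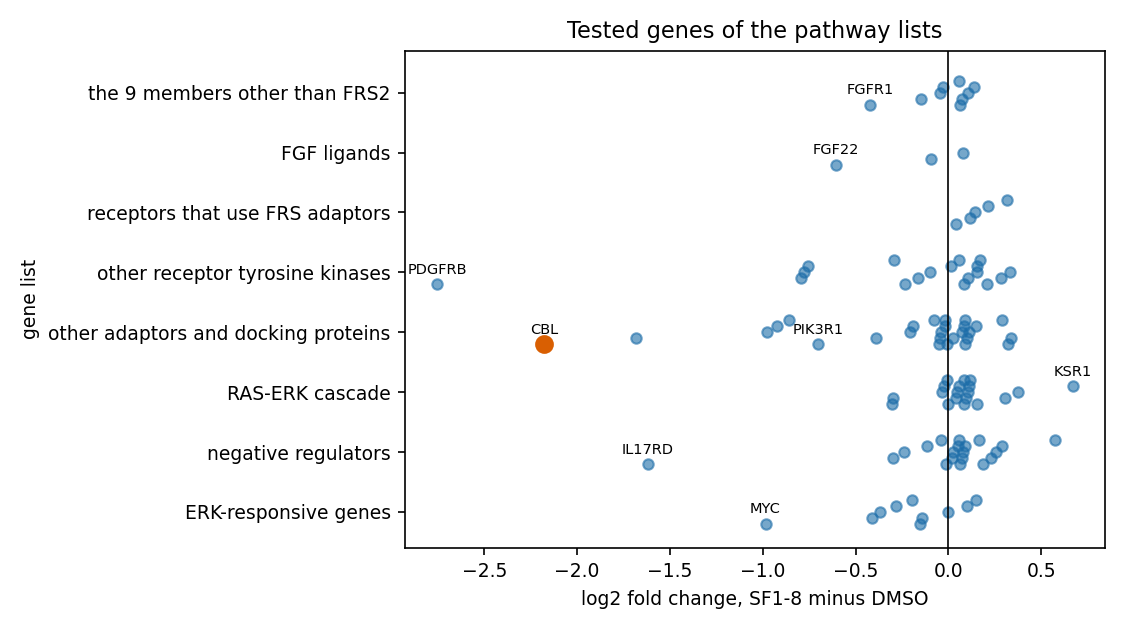
Log2 fold change of SF1-8 minus DMSO (x axis) of each tested gene in the 7 pathway lists and of the 9 genes other than FRS2 (y axis, with points spread vertically only to be visible). The large orange point is CBL at -2.18, the gene past the adjusted threshold, and most blue points lie close to 0.

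CBL was that gene. It encodes the E3 ubiquitin ligase that GRB2 brings to FRS2 and to receptor kinases. The FPKM was 11.3 and 11.2 with DMSO against 2.57 and 2.32 with SF1-8, without overlap. This is a log2 fold change of -2.18, with a standard error of 0.0925 (edgeR quasi-likelihood test, Benjamini-Hochberg adjusted p = 0.0166). Without DMSO 1 the change was -2.21, and over all left-out libraries it ran from -2.26 to -2.10. With all 4 libraries and the replicate block the adjusted p was 0.075 (edgeR quasi-likelihood test), so the call depended on the setting. Over all alternatives the adjusted p ran from 3.68e-58 with DESeq2 to 0.212 with limma on log2(FPKM + 1). CBL and FRS2 RNA therefore stood apart in opposite directions in the same 4 libraries, and a link between them was not tested. The study's own western blot showed no change of c-CBL protein.

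Among the other adaptors and docking proteins, 27 of 34 were tested. PIK3R1, the regulatory subunit of PI3 kinase, had an FPKM of 1.89 and 1.58 with DMSO against 1.00 and 1.08 with SF1-8. The groups did not overlap, but with a log2 fold change of -0.70 it did not pass (edgeR quasi-likelihood test, Benjamini-Hochberg adjusted p = 0.657). The adjusted p by DESeq2 was 0.0130, and over the other alternatives it ran from 0.418 to 0.993. GRB7, an adaptor of ERBB receptors, was low, at 0.545 and 0.419 with DMSO against 0.236 and 0.235 with SF1-8, with a log2 fold change of -0.98 that did not pass (edgeR quasi-likelihood test, unadjusted p = 0.0172, Benjamini-Hochberg adjusted p = 0.970). CRKL, an adaptor and a major substrate of BCR-ABL, was the most abundant of the list at an FPKM of 130.4 and 129.4 with DMSO against 132.9 and 137.3 with SF1-8, and CRK had 14.2 and 13.1 with DMSO against 15.0 and 13.9 with SF1-8.

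Of 18 ligands of the FGF family, 3 were tested and none passed. FGF2 was the highest, with an FPKM of 7.14 and 6.55 under DMSO and 7.08 and 7.08 under SF1-8. FGF5 stood at 1.12 and 0.962 under DMSO and 0.918 and 0.998 under SF1-8. FGF22 was lower in both SF1-8 libraries, at 0.271 and 0.166 against 0.341 and 0.338, with a log2 fold change of -0.61 whose interval, -1.61 to 0.40, includes 0.

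Of 11 receptors and coreceptors grouped with FRS adaptors, 5 were tested, none passed, and their log2 fold changes ran from 0.04 to 0.32. FGFR3 was far above FGFR1, with an FPKM of 5.25 and 8.34 under DMSO and 8.17 and 8.58 under SF1-8. Its DMSO libraries differed more from each other than DMSO 2 did from SF1-8. FGFR4 had 3.41 and 3.32 under DMSO and 3.52 and 3.66 under SF1-8, and its groups did not overlap, with a log2 fold change of 0.12 (standard error 0.110). FGFRL1, a family member without a kinase domain, had 11.7 and 10.2 under DMSO and 11.1 and 10.9 under SF1-8. KLB, the coreceptor for endocrine FGFs, was at 0.390 and 0.419 under DMSO and 0.468 and 0.456 under SF1-8.

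Of 23 other receptor tyrosine kinases, 18 were tested and none passed. PDGFRB, a receptor of fibroblasts and pericytes, had counts of 27 and 12 with DMSO against 4 and 3 with SF1-8. It had a log2 fold change of -2.75 with a standard error of 1.06, and like the fibroblast markers in sum it was highest in DMSO 1 and lowest in SF1-8 2. DDR1, a collagen receptor, had 3.46 and 3.25 with DMSO against 2.81 and 2.79 with SF1-8, a log2 fold change of -0.24 that did not pass (edgeR quasi-likelihood test, unadjusted p = 0.0498, Benjamini-Hochberg adjusted p = 0.970). KIT, the stem cell factor receptor, had 6.78 and 5.69 with DMSO against 5.86 and 7.25 with SF1-8. The entries that name ERBB3 and PDGFRA also hold PA2G4 and FIP1L1, and their levels cannot be given to the receptors alone. Their log2 fold changes were 0.01 and 0.15.

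Downstream, 19 of 20 genes of the RAS-ERK cascade were tested and none passed. KSR1, a scaffold of the cascade, had the smallest p of the list. The entry it shares with LGALS9 had an FPKM of 1.70 and 1.74 with DMSO against 2.58 and 2.81 with SF1-8, with a log2 fold change of 0.67 and a standard error of 0.0952 (edgeR quasi-likelihood test, Benjamini-Hochberg adjusted p = 0.397). DESeq2 gave an adjusted p of 0.000367, and the other alternatives gave 0.203 to 0.992. NRAS had 49.4 and 47.0 with DMSO against 48.6 and 51.7 with SF1-8. Its groups overlapped by FPKM, but on TMM-scaled counts both SF1-8 libraries were above both DMSO libraries.

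Of 21 negative regulators, 20 were tested and none passed. The phosphatase gene PTPN2 had 2.41 and 2.62 with DMSO against 2.95 and 2.98 with SF1-8, a log2 fold change of 0.26 (standard error 0.115). SPRED1, an inhibitor of RAS activation, had 6.92 and 6.81 with DMSO against 7.36 and 7.72 with SF1-8. Its relative SPRED2 had 11.0 and 10.2 with DMSO against 11.4 and 10.2 with SF1-8, and PTPN1, a phosphatase of receptor kinases, had 29.8 and 29.8 with DMSO against 30.9 and 30.9 with SF1-8. IL17RD, a membrane inhibitor of FGF signalling, was near the limit of detection, with counts of 19 and 29 with DMSO against 14 and 4 with SF1-8.

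All 10 genes taken as responsive to ERK activity were tested, and none passed. Their median log2 fold change was -0.17, from -0.99 for MYC to 0.15. ETV4, a transcription factor induced by FGF signalling, had an FPKM of 13.4 and 13.2 with DMSO against 11.0 and 11.8 with SF1-8, without overlap and with a log2 fold change of -0.20 (standard error 0.0881). FOSL1 had 6.94 and 4.43 with DMSO against 4.39 and 4.21 with SF1-8. MYC had 5.65 in DMSO 1 and 19.8 in DMSO 2, against 8.00 and 4.78 with SF1-8, so DMSO 2 stood apart from the other 3 libraries and the groups overlapped.

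U2AF1, at whose UHM domain the compound is directed, did not pass the test either. Its FPKM was 11.5 ± 0.0606 (SD, n = 2) in controls and 11.9 ± 0.117 (SD, n = 2) after SF1-8, a log2 fold change of 0.09 (standard error 0.0716), and the entry does not separate the mutant from the endogenous transcript. U2AF1 has a near-identical copy in this genome build, and how reads were divided between copies is not given in the sources used here. U2AF2, its partner, had 25.5 and 24.6 with DMSO against 23.8 and 23.4 with SF1-8.

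The pattern of FRS2 over the 4 libraries was compared with that of every tested entry by the distance between log2 CPM (counts scaled to library size), each centred on its own mean. With 4 libraries in 2 groups such likeness mostly says that a gene differed between the groups by a similar amount, and it is given as a description. The 5 nearest entries were the antisense RNA PRKCA-AS1 at a distance of 0.0647, the noncoding RNA AL592295 at 0.142, a short entry named SRP72 at 0.162, BCL2 at 0.179 and AP3M2 at 0.196. The first 3 rest on at most 55 counts in any library. BCL2, the apoptosis inhibitor, had an FPKM of 0.271 and 0.238 with DMSO against 0.570 and 0.578 with SF1-8. AP3M2, a subunit of an adaptor complex for vesicle transport, had 1.81 and 1.41 with DMSO against 4.18 and 4.42 with SF1-8.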

How the data were processed

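The members and gene lists were chosen with earlier results of these data known. According to the submitters' processing notes, reads were handled with cutadapt, FastQC, Bowtie2, HISAT2 and StringTie on hg38, with versions not given in the sources used here, and values are per entry of a merged assembly. The FPKM columns deposited by the authors are scaled for length and depth, and 0.0001 stands in for 0. The count columns deposited by the authors hold whole numbers but peak at 4, so they were treated as estimated counts without normalization. The edgeR and DESeq2 fits take their counting error from these units, which may misjudge it. Of all counts, 0.372% lay on 2095 entries that name no gene, which were left out.

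Total counts were 45522905 and 64387710 (DMSO) and 67554610 and 64305922 (SF1-8). Counts were normalized by TMM (factors 0.973 to 1.05), filtered by filterByExpr to 26167 entries and tested by edgeR 4.0.16's quasi-likelihood test in R 4.3.3, with p-values adjusted over all entries by the Benjamini-Hochberg method. FRS2 was among these entries, but no p-value is given for it. On simulated counts for this comparison over 26167 genes, with 200 changed 4-fold, 54.5% were recovered and 5.22% of calls were false. Alternatives were DESeq2 1.42.0, upper-quartile factors, no filter, counts divided by 4, a replicate block, limma 3.58.1 on log2(FPKM + 1) or log2(FPKM + 0.1), an FPKM minimum of 2, and leaving out each library.

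The genes named are the 10 members, CBL, per list the 3 tested genes with the smallest unadjusted p and the 2 with the highest mean FPKM together with those past the adjusted threshold, the 5 entries nearest FRS2 in pattern, entries overlapping or flanking a member, U2AF1 and U2AF2. Some genes taken by this rule enter the counts but their values are not reported here. Per transcript values, proteins and other cell lines were not analysed here. Transcript structures come from GENCODE 29.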

Additional observations from a re-analysis of the deposited data

How the results depend on the processing

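The 11 genes past the adjusted threshold became 163 with DESeq2, 31 with no filter on low counts, 1 with limma on FPKM over 2 in at least 1 library, and 0 with the replicate block, limma on log2(FPKM + 1) and limma on log2(FPKM + 0.1), where 971, 1493 and 1499 genes had an unadjusted p under 0.05. Over left-out libraries they ranged from 0, without DMSO 1 and with 1293 genes at an unadjusted p under 0.05, to 20. The 1 pathway gene became 3 with DESeq2 (CBL, KSR1 and PIK3R1) and 0 with the block and each limma setting, and ranged from 0 to 1 over left-out libraries. The cause was not tested. FRS2's log2 fold change was 0.74 with limma on log2(FPKM + 1), with or without the FPKM minimum, and 1.22 on log2(FPKM + 0.1), where the pseudocount draws low levels toward 0, and 1.24 to 1.42 over left-out libraries.

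None of the 9 other genes was past the threshold in any of the 12 alternatives, though FGFR1, FRS3 and GAB1 fell below the FPKM minimum of 2 and were not tested there, and the lowest adjusted p was 0.719. Of their 105 values, 100 kept their direction and 5 reversed, all over left-out libraries, where FRS3 ranged from -0.312 to 0.0352, GAB1 from -0.0711 to 0.381 and SHC1 from -0.155 to 0.0914. The replicate numbers gave no evidence of pairing, with a correlation of 0.0165 between same-numbered libraries, and with the replicate block FRS2 was at 1.33. FGFR1 rests on 63 to 122 counts per library and the short entries of FRS2 on 4 to 40.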
